A study of Mus musculus with 6 samples.

Results

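Of 10244 splenic B cells, 75 (30 of 6446 from a wild-type mouse and 45 of 3798 from a 564Igi mouse) had at least 1000 receptor unique molecular identifiers (UMIs, each counting 1 captured transcript). B cells were barcodes with a cell call in the B-VDJ table of their mouse and none in its T-VDJ table. The high-UMI cells were chosen by the summed UMIs of their productive, high-confidence contigs (assembled receptor transcripts) with at least 2 UMIs each, with 1000 as the minimum sum. The wild-type animal (WT) was 1 C57BL/6JRj mouse, and the other was 1 heterozygous 564Igi mouse of the B6.129S4(Cg) background with the alleles Igktm1(Igk564)Tik at Igk and Ightm1(Igh564)Tik at Igh. In this line rearranged heavy and kappa light chain genes of an autoreactive antibody stand in both loci. Being heterozygous, the 564Igi mouse also holds unaltered alleles of both loci. Erythroid cells (Ter-119-positive) were removed from both spleens, and the cells were processed with 10x 5' V(D)J kits. Ages are not given in the sources used here. With 1 mouse per group no test between the mice was possible and no p-value was computed. Intervals are exact binomial intervals at 95% and cover counting error only, with differences given as Newcombe intervals built from them. Beside a count of 0, the share that 3 counts would make is printed as the limit, which is a little below the exact upper bound.

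Antibody-secreting cells (plasmablasts and plasma cells) are the end stage of B cell differentiation, and they make very large amounts of immunoglobulin transcript while resting B cells keep a low level for the membrane receptor. Naive B cells make IgM and IgD from 1 primary transcript, and secreting cells lose IgD, whereas class switching replaces the IgM constant gene by one of IgG, IgA or IgE. In the spleen, secreting cells arise both outside follicles, often as IgM cells, and from germinal centres, where V genes also mutate. The receptor tables measure none of the plasma cell markers Sdc1, Xbp1, Prdm1, Irf4, Jchain and Mzb1, and gene expression libraries were not used here. The name plasma cell could therefore not be checked against its markers, and the cells are described by their UMI rule.

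In the 564Igi mouse, the heavy and kappa chain CDR3 sequences that were primary (most UMIs in the cell) in most B cells are called the candidate knock-in chains, since the labels give no sequence. The candidate heavy chain used IGHV1-53 with IGHJ4, and the candidate light chain used IGKV4-59 with IGKJ5. The CDR3 is the part of a chain that spans its V(D)J junction, and it is printed from the codon of the conserved cysteine onwards, as deposited. The candidate CDR3 sequences are shown with the variants that high-UMI cells carried, because several high-UMI cells carried the same ones. Capitals mark the bases at which a variant differs from the candidate (in the candidates, every base that differs in some variant).
candidate heavy chain: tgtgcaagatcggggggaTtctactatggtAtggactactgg
heavy chain variant: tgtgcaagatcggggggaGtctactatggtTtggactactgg
candidate light chain: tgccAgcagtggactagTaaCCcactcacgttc
light chain variant A: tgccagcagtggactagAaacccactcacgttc
light chain variant B: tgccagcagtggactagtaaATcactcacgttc
light chain variant C: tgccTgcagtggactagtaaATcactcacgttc
With positions counted from 1 at the first base shown, the heavy chain variant had T19G and A31T. Light chain variant A had T18A. Variant B had C21A and C22T, and variant C had these and A5T.

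Other high-UMI cells of the 564Igi mouse carried heavy chains that used another V gene or a longer CDR3 but finished with the end of the candidate heavy CDR3 (its last 30 bases with up to 2 mismatches). They are shown, with that end in capitals, because they share the candidate's 3' end beneath another V gene. In cell 42 the V gene is that of the candidate and the CDR3 is longer.
564Igi cell 6, IGHV8-8: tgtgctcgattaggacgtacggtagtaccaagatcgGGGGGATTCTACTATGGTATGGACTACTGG
564Igi cell 22, IGHV2-9: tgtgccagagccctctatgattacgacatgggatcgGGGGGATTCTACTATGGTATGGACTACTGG
564Igi cell 29, IGHV10-1: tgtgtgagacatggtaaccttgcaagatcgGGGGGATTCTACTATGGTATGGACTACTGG
564Igi cell 42, IGHV1-53: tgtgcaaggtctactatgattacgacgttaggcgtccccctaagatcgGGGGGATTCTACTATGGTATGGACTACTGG
The heavy chain CDR3 sequences of the 3 WT cells with most UMIs are shown as well, since all 3 were IgA chains whose light and heavy pair recurred in cells with few UMIs.
WT cell 1, IGHV9-3: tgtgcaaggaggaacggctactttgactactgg
WT cell 2, IGHV1-76: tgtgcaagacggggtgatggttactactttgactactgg
WT cell 3, IGHV1-12: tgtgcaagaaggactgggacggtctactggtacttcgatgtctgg
Cells are numbered within their mouse from the highest UMI sum down.

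The UMI sum chose the cells, so its values are a description. WT high-UMI cells had a median of 7810 UMIs (1176 to 30930), against 55 in the other WT B cells. The 564Igi cells had a median of 9227 (1085 to 19853), against 35. Of the high-UMI cells, 21 in WT and 36 in 564Igi exceeded 5000 UMIs. The WT cells nearest the threshold had 1176, 1278 and 1322 UMIs above it and 851, 791 and 725 below it. The 564Igi cells nearest to it had 1085, 1867 and 2106 above it and 911, 897 and 561 below it. From 300 to under 1000 UMIs lay 22 WT and 5 564Igi cells. High-UMI cells made up 0.465% of WT B cells (0.314 to 0.664) and 1.18% of 564Igi B cells (0.866 to 1.58). They held 42.2% and 71.4% of all B cell UMIs.

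**Figure D1:**
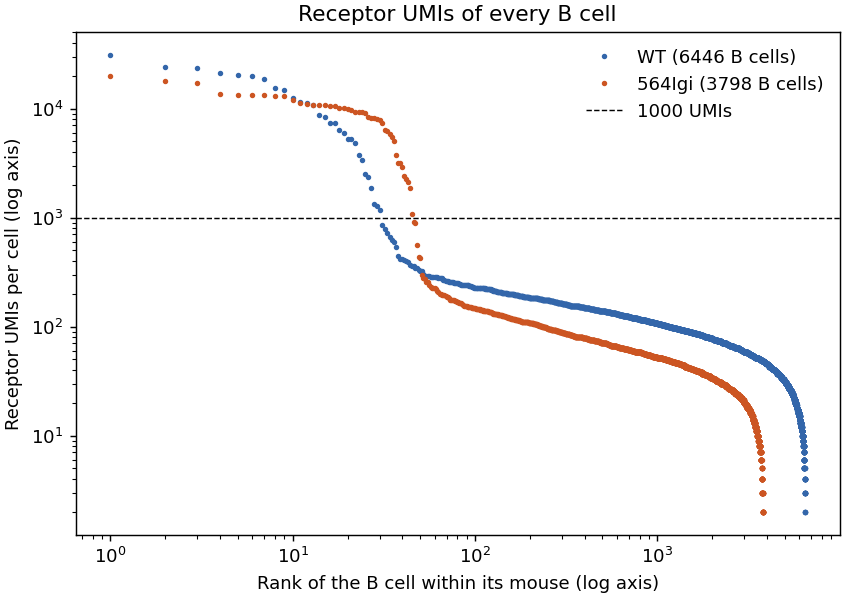
UMI sum of every B cell (vertical log axis) against its rank within its mouse (horizontal log axis), 1 point per cell, blue for WT and orange for 564Igi, with the dashed line at 1000 UMIs. Both curves drop steeply across the line, which 30 WT and 45 564Igi cells pass.

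The B cell tables held 927382 UMIs in WT and 747499 in 564Igi. No barcode was a high-UMI cell in both mice, and 31 B cell barcodes were shared by the 2 libraries. Among high-UMI cells the median number of reads per UMI was 23.1 in WT and 19.2 in 564Igi, against 31.3 and 38.7 in the other B cells. It was lowest in the cells with most UMIs, at 5.83 to 8.61 in the first 5 WT cells and 26.8 to 37.2 in the last 5. In 564Igi it was 8.60 to 13.1 and 40.1 to 50.3 in the same positions. Read totals per B cell reached at most 187410 in WT and 184087 in 564Igi, so UMI sums were recorded at fewer reads per UMI in the largest cells, and what this does to their order was not tested. T cell receptor contigs were found in 1 of 30 WT high-UMI cells (3 UMIs) and 1 of 45 564Igi cells (1 UMI), or 3.33% and 2.22%, against 2.70% and 3.20% of the other B cells.

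No high-UMI cell had IGHD, the IgD constant gene, as the constant gene of its primary heavy chain. It was named in 0 of 30 WT cells (3 counts would be 10.0%) and 0 of 44 564Igi cells with a named constant gene (3 counts would be 6.82%). Among B cells under 1000 UMIs, IGHD was named in 21.6% of WT (971 of 4497) and 17.4% of 564Igi cells (583 of 3342). The differences were -21.6 points (-22.8 to -9.96) and -17.4 points (-18.8 to -9.30). IGHD was already less frequent in B cells of 100 to under 1000 UMIs, at 11.2% (122 of 1090) in WT and 4.17% (8 of 192) in 564Igi. Against those cells the differences of -11.2 points (-13.2 to 0.519) and -4.17 points (-8.04 to 4.21) had intervals that included 0.

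IGHM, the IgM constant gene (Ighm, chromosome 12, 113418826 to 113422730 in GRCm38.p6), was the constant gene of most high-UMI cells. It was named in 23 of 30 WT cells (76.7%, 57.7 to 90.1) and 40 of 44 564Igi cells (90.9%, 78.3 to 97.5). The other B cells had 78.0% and 81.7%, and both differences had intervals that included 0.

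Switched constant genes (IgG, IgA and IgE) were more frequent in high-UMI cells than in the other B cells of both mice. In WT, 7 of 30 high-UMI cells were switched (23.3%, 9.93 to 42.3), against 19 of 4497 other cells (0.423%), a difference of 22.9 points (9.51 to 41.9). In 564Igi, 4 of 44 were switched (9.09%, 2.53 to 21.7), against 30 of 3342 (0.898%), a difference of 8.19 points (1.62 to 20.8), or 13.02 points (4.83 to 25.8) with barcodes called in both tables kept. Among the 4, cells 5 and 40 share a heavy chain. With each distinct heavy chain counted once, the 564Igi difference was 7.07 points (0.265 to 21.6). Against B cells of 100 to under 1000 UMIs, of which 0.642% were switched in WT and 2.08% in 564Igi, the differences were 22.7 points (9.27 to 41.6) and 7.01 points (-0.274 to 19.7). The interval of the 564Igi difference thus reached 0 in that comparison.

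IGHA (Igha, chromosome 12, 113256204 to 113260236), which encodes the IgA class of mucosal surfaces, was found in the 3 WT cells with most UMIs. WT cell 1 had 13370 heavy chain UMIs, WT cell 2 had 11007 and WT cell 3 had 12301. These 3 exceeded the heavy chain UMIs of every other WT high-UMI cell, of which the highest, WT cell 7 (IGHM), had 6130. In 564Igi, IGHA was found in cell 1 with 5203 heavy chain UMIs and in cell 6 with 7140, the highest of that mouse. IGHA made up 10.0% of WT high-UMI cells (3 of 30, 2.11 to 26.5) and 0.245% of the others (11 of 4497). In 564Igi it made up 4.55% (2 of 44, 0.555 to 15.5) and 0.0299% (1 of 3342).

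IgG constant genes, those of the main serum antibody class, were found in 4 of 30 WT and 2 of 44 564Igi high-UMI cells. In WT these were IGHG1 in cell 14 (3177 heavy chain UMIs) and cell 24 (2205), IGHG2B in cell 20 (901) and IGHG2C in cell 6 (4871). In 564Igi they were IGHG2C in cell 5 (4355) and cell 40 (1290), which share the heavy chain variant printed above. IGHG2C (Ighg2c, chromosome 12, 113287389 to 113288932) was named in 9 of 3342 other 564Igi B cells (0.269%), a difference of 4.28 points (0.279 to 15.2). Cells 5 and 40 are not independent, and this interval treats them as if they were. The IgG genes in all had 13.3% in WT high-UMI cells against 0.178%, a difference of 13.2 points (3.58 to 30.5). In 564Igi they had 4.55% against 0.868%, a difference of 3.68 points (-0.330 to 14.6) whose interval included 0. IGHG3 and IGHE were found in no high-UMI cell of either mouse. Among the other B cells, IGHG3 was named in 1 of 4497 in WT and 4 of 3342 in 564Igi, and IGHE in none. Their absence is therefore no trait of the high-UMI cells.

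**Figure D2:**
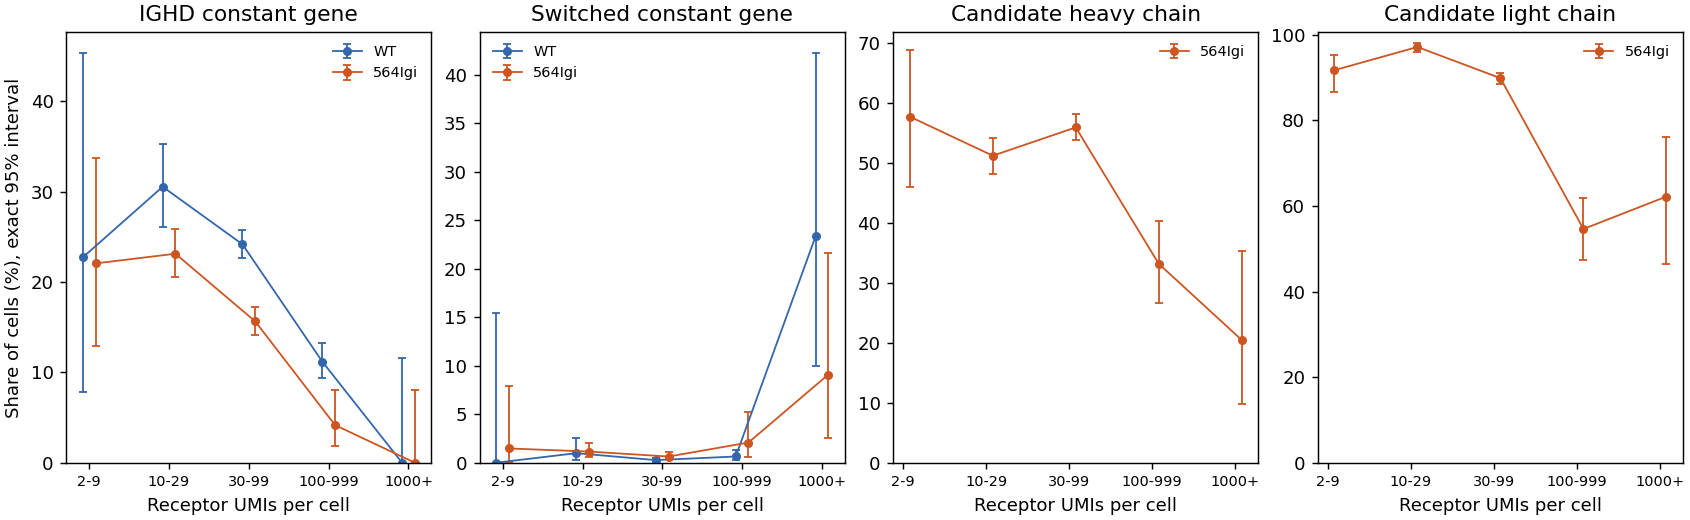
Share of cells (vertical axes, percent, with exact 95% intervals) by receptor UMIs per cell (horizontal axes, bins), for IGHD, switched constant genes and the candidate heavy and light chains, blue for WT and orange for 564Igi. IGHD falls over the upper bins to 0 of 30 and 0 of 44 cells, and the candidate light chain has 54.6% in the bin of 100 to under 1000 and 62.2% at 1000 and above.

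A heavy and a light chain were both found in all 30 WT and in 44 of 45 564Igi high-UMI cells. The exception, 564Igi cell 37, had 3762 UMIs of the candidate light chain and no heavy chain that passed. Among other B cells with a light chain, a heavy chain was found in 74.5% in WT and 91.0% in 564Igi. These shares rose with UMIs to 97.1% and 99.5% at 100 to under 1000 UMIs.

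Light chain transcripts outnumbered heavy chain transcripts in most high-UMI cells. WT high-UMI cells had a median of 5392 light and 2061 heavy chain UMIs, and the light-to-heavy ratio had a median of 2.93 (quartiles 1.61 and 4.71, 0.535 to 10.8 in all 30). The other WT B cells had a median ratio of 3.10, which lies within the 95% interval of the high-UMI median (1.74 to 4.58). In 564Igi the high-UMI cells had medians of 5729 light and 2871 heavy chain UMIs and a median ratio of 2.15 (interval 1.90 to 2.32). The other 564Igi cells had a median ratio of 1.06 (1.03 to 1.09), and those of 100 to under 1000 UMIs one of 1.63 (1.34 to 1.79). The ratio of high-UMI cells was therefore near that of other B cells in WT and above it in 564Igi.

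In 564Igi the ratio among other B cells went with the light chain they used. It was 1 in the 2978 cells whose primary light chain was the candidate and 2.82 (2.60 to 3.12) in the 300 with another light chain. Among high-UMI cells the medians were 1.90 (1.17 to 2.23, 27 cells) with the candidate and 2.32 (2.14 to 3.16, 17 cells) with another light chain. These intervals overlapped in the high-UMI cells and did not in the others. The ratio of high-UMI cells was thus above that of the others only with the candidate light chain. With another light chain the high-UMI median was the lower one, with overlapping intervals. The heavy chain had more UMIs than the light chain in 6 of 44 564Igi high-UMI cells (13.6%), against 44.4% of the others, a difference of -30.8 points (-39.4 to -17.0). In WT it did so in 2 of 30 (6.67%), against 6.64%.

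Ratios were also compared by constant gene, in few cells. In WT the 3 IGHA cells had ratios of 0.902, 1.18 and 1.31, while the 23 IGHM cells had a median of 3.23 (2.02 to 4.74). All 3 IGHA values were below that interval, and the lowest ratio of an IGHM cell was 1.26. The 4 WT IgG cells had a median of 2.41 and a range of 0.535 to 4.89, on both sides of the IGHM median. In 564Igi the IGHA cells had ratios of 2.82 and 0.876, on both sides of the IGHM median of 2.15. The widest ratio was that of 564Igi cell 45, with 7 UMIs of the candidate heavy chain and 1078 of the candidate light chain.

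**Figure D3:**
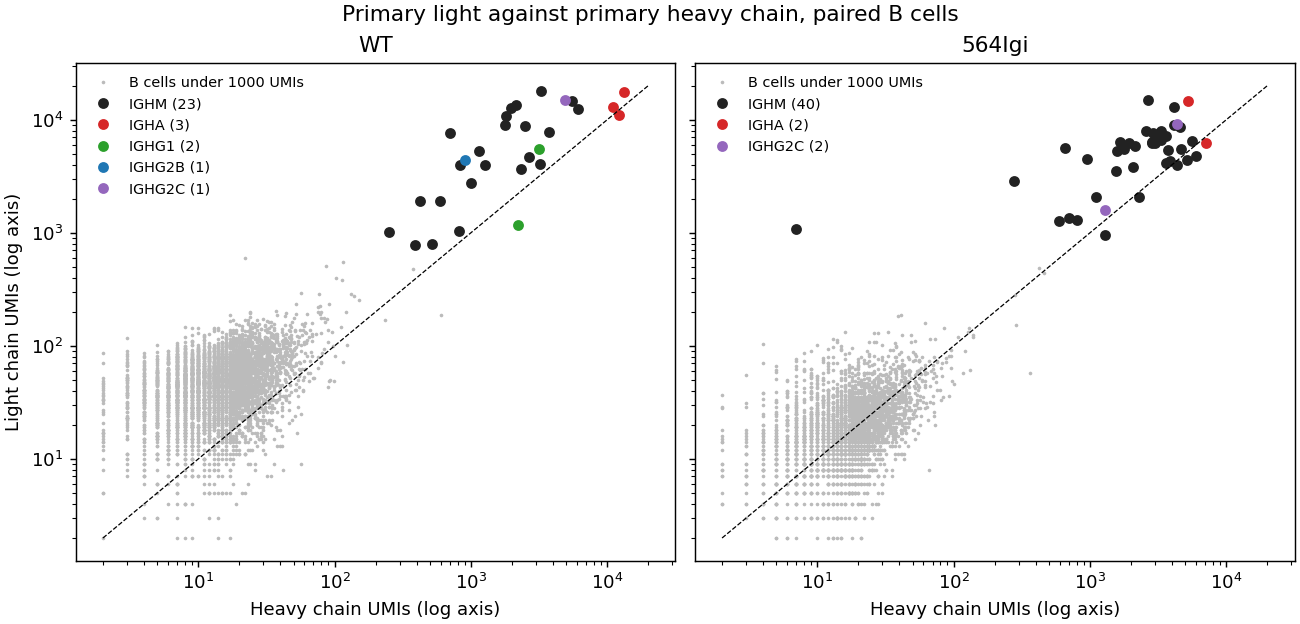
Primary light chain UMIs (vertical log axis) against primary heavy chain UMIs (horizontal log axis) of each B cell with both chains, WT left and 564Igi right, with grey points for cells under 1000 UMIs, coloured points for high-UMI cells by constant gene, and a dashed line at equality. The 3 red IGHA cells of WT lie at the right edge near the line, and 1 564Igi cell lies far to the left with 7 heavy chain UMIs.

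A second light chain was not found in WT high-UMI cells. It was found in 0 of 30 (3 counts would be 10.0%), against 15.7% (997 of 6365) of the other WT B cells, a difference of -15.7 points (-16.6 to -4.06). Thinning each cell to 10 UMIs, in a single random draw that left out cells with fewer, gave -12.7 points (-13.6 to -1.10). With a cut of 500 UMIs it was -10.2 points (-15.1 to 2.58), and with barcodes called in both tables kept -12.3 points (-15.6 to 1.17), both with intervals that included 0. The share rose with UMIs below the threshold, to 42.3% of the 1150 WT cells of 100 to under 1000 UMIs. In 564Igi it was found in 6 of 45 high-UMI cells (13.3%, 5.05 to 26.8), against 5.33% of the others and 34.0% of the cells of 100 to under 1000 UMIs. The 564Igi share was thus above that of all other cells, with an interval for the difference that included 0 (-0.310 to 21.5 points), and below that of the 100 to under 1000 group (-20.7 points, -31.6 to -5.68). After thinning to 10 UMIs the difference from the other cells that had as many was 7.68 points (0.0832 to 20.9). That interval narrowly left out 0 in a single draw, and other draws were not made. A second heavy chain was found in no high-UMI cell, against 7.30% of other WT and 3.44% of other 564Igi cells with a heavy chain. Both differences had intervals that included 0 (-8.07 to 4.29 and -4.11 to 4.62 points), and thinning to 10 UMIs left them at -1.77 and -1.30 points.

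All 6 second light chains of 564Igi high-UMI cells were the candidate light chain, beside a primary kappa chain of another V gene. None of these 6 cells had the candidate heavy chain. Cell 32 had 2074 UMIs of IGKV5-39 and 1922 of the candidate, or 92.7% of the first. Cell 4 had 6227 UMIs of IGKV10-96 and 4504 of the candidate (72.3%). Cell 41 had the lowest share, with 1339 UMIs of IGKV8-27 and 358 of the candidate (26.7%). The other three had primary chains of IGKV2-109, IGKV14-111 and IGKV2-137, with the candidate at 43.4% to 50.5% of the first.

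Lambda light chains, encoded apart from kappa on chromosome 16, were primary in 4 of 30 WT high-UMI cells (13.3%, 3.76 to 30.7) and 3 of 45 564Igi cells (6.67%, 1.40 to 18.3). The other B cells had 7.95% and 2.36%, and both differences had intervals that included 0. With a cut of 500 UMIs the WT difference moved from 5.38 to 13.7 points (1.91 to 30.3), an interval without 0. In B cells of 100 to under 1000 UMIs, however, lambda was primary in 15.5% in WT and 16.0% in 564Igi. The differences from those cells were negative, at -2.14 points (-12.0 to 15.4) in WT and -9.31 points (-17.2 to 3.26) in 564Igi. Both of these intervals included 0. None of the 3 564Igi lambda cells held the candidate light chain.

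The candidate heavy chain was less frequent among 564Igi high-UMI cells than among the other B cells of that mouse. It was primary in 9 of 44 (20.5%, 9.80 to 35.3) against 53.1% (1821 of 3427), a difference of -32.7 points (-43.5 to -17.7). Of the 9, cells 13, 16 and 19 share both chains, and cell 45 had 7 UMIs of the candidate heavy chain. That chain also occurred in 849 T cell barcodes and 287 uncalled barcodes. Leaving out cell 45, tried after seeing the data, gave -34.5 points (-44.9 to -19.6). In B cells of 100 to under 1000 UMIs the candidate heavy chain was primary in 33.2%. Against those the difference of -12.7 points (-25.5 to 3.54) had an interval that included 0. With each distinct heavy chain counted once it was 2.17 points, since the candidate then counts as 1 chain. Of the other 35 heavy chains, 11 (31.4%, 16.9 to 49.3) had the candidate end, against 45.4% of the other cells' heavy chains, a difference of -14.0 points (-28.7 to 4.06). The remaining 24 cells had heavy chains with neither the candidate nor its end.

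The candidate light chain was primary in 28 of 45 564Igi high-UMI cells (62.2%, 46.5 to 76.2), against 90.5% (3260 of 3604) of the others, a difference of -28.2 points (-43.9 to -14.2). The direction turned against B cells of 100 to under 1000 UMIs, of which 54.6% used it, to 7.58 points with an interval that included 0 (-9.65 to 23.4). The light chains of the other 564Igi B cells went with UMIs in the same way, with a median of 35 UMIs per cell with the candidate and 67 with another light chain. Counting any light chain of the cell, 34 of 45 high-UMI cells held the candidate (75.6%), against 95.01%. Both candidates together were found in 5 of 44 paired high-UMI cells (11.4%, 3.79 to 24.6), against 50.4% of all others and 27.5% of those of 100 to under 1000 UMIs. This difference had an interval without 0 in both comparisons, at -39.1 points (-46.8 to -25.8) and -16.1 points (-26.3 to -1.53). These counts took exact matches only. Another 3 high-UMI cells paired the candidate heavy chain with light chain variant A, and cells 5 and 40 carried variants of both chains. With up to 2 mismatches allowed, the difference from all other cells was -19.9 points (-35.3 to -7.31) for the light chain. For the heavy chain it was -28.2 points (-40.1 to -12.8). The pair was not recomputed with mismatches.

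Near copies of the candidate light chain (same V and J gene and length, 1 to 5 mismatches) were primary in 5 of 45 564Igi high-UMI cells. Among cells with the candidate or a near copy they made up 15.2% (5 of 33, 5.11 to 31.9), against 0.731% of the others (24 of 3281) and 2.75% of those of 100 to under 1000 UMIs. The difference was 14.4 points (4.37 to 31.2) and, against 100 to under 1000 UMIs, 12.4 points (1.14 to 29.3). Chains this close to the candidate also occurred without the knock-in, in 45 of 6365 other WT B cells, of which 32 shared 1 CDR3, and in 0 of 30 WT high-UMI cells. None of the 3 light chain variants printed above occurred among the WT contigs.

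Light chain variant A, with the amino acid change S6R counted from the first CDR3 residue, was the primary light chain of 564Igi cells 13, 16 and 19. All 3 paired it with the candidate heavy chain and used IGHM, with 7584, 7982 and 6893 light chain UMIs and 3270, 2564 and 3218 heavy chain UMIs. Their UMI sums chose them, so their distance in UMIs from other cells with this light chain was set by the rule. Variant A was primary in 4 other 564Igi B cells, with 7 to 35 light chain UMIs, of which 2 had the candidate heavy chain, 1 another heavy chain and 1 none. It also appeared in 28 barcodes that were not called cells. These 3 cells share both chains, and the other 2 near copies are in cells that share a heavy chain, described next. The 5 near copies are therefore not independent, and the interval of 5.11 to 31.9% treats them as if they were.

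The heavy chain variant, with F7V and M11L at the amino acid level, was found in 564Igi cells 5 and 40, the IGHG2C cells. Cell 5 paired it with light chain variant B (4355 heavy and 9087 light chain UMIs). Cell 40 paired it with variant C (1290 and 1594), which has the additional base change A5T. These cells thus shared their heavy chain CDR3 and had light chains 1 base apart. The heavy chain variant was primary in 1 other B cell, with 2 heavy chain UMIs, IGHG2C and light chain variant C, and it appeared in 9 barcodes not called cells. Near copies made up 2 of 11 high-UMI heavy chains that were the candidate or near it, against 15 of 1824 in the others. Against 4 of 68 in cells of 100 to under 1000 UMIs the difference of 12.3 points (-5.73 to 46.2) had an interval that included 0, and both near copies are the same chain. None of the WT heavy chains was a near copy.

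A nonproductive IGKV14-111 contig was found in 7 of the 11 564Igi high-UMI cells with the candidate heavy chain or its variant and in 0 of the other 34. Among the other 564Igi B cells such contigs were rare in both groups, at 10 of 1824 and 10 of 1929. Those cells had a median of 35 UMIs, against 9227 in the high-UMI cells. How far finding such a contig depends on UMIs was not tested. The 11 cells are not independent, since cells 13, 16 and 19 share both chains and cells 5 and 40 share a heavy chain.

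Among V genes used by at least 3 high-UMI cells of 1 mouse, WT had IGHV1-76, IGKV15-103 and IGLV1. IGHV1-76 (chr12:115847881-115848174) was used by WT cells 2, 7 and 12 (10.0%), against 1.92% of the other WT cells. IGKV15-103 (chr6:68437468-68437925) was used by cells 5, 14 and 20 (10.0%, 2.11 to 26.5), against 1.05%. IGLV1 was used by cells 2, 15 and 28 (10.0%), against 4.92%. The 3 cells of each gene had different partner chains and CDR3 sequences, so they were not 1 clone.

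In 564Igi, IGHV1-53 (chr12:115158445-115158835) was used by 12 of 44 high-UMI cells (27.3%, 15.0 to 42.8), against 54.7%, which includes the candidate. IGKV4-59 (chr6:69438218-69438741) was used by 33 of 45 (73.3%), all of them with the candidate light chain or a near copy, against 91.1%. IGHV10-1 (chr12:114479007-114479451) was used by cells 2, 29 and 35 (6.82%, 1.43 to 18.7), against 0.438%. IGHV2-9 (chr12:113879097-113879388) was used by cells 22, 24 and 38 (6.82%), against 1.23%. These counts of 3 cells leave wide intervals, and the genes were picked for having at least 3. The heavy chain shares count all heavy chains, the candidate included, which was primary in 20.5% of high-UMI and 53.1% of other cells. A lower candidate share leaves more for every other V gene, and the shares of IGHV10-1 and IGHV2-9 were not recomputed without the candidate.

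The IGHV1 family, the largest of the mouse, was used by 60.0% of WT high-UMI cells (18 of 30) and 58.5% of the others. Without the candidate it was used by 51.4% (18 of 35) and 47.0% in 564Igi. IGHV5 and IGHV2 together had 13.3% and 12.5% in WT, and 7 of 35 and 20.7% in 564Igi. IGKJ4 or IGKJ5, the J genes farthest downstream, were used by 14 of 26 WT kappa cells (53.8%, 33.4 to 73.4), against 38.7%, and without the candidate by 10 of 14 in 564Igi (71.4%), against 49.8%. All of these differences had intervals that included 0. The pairs IGHV11-2 with IGKV14-126 and IGHV12-3 with IGKV4-91, which mark B-1 cells, were found in no high-UMI cell. They were as rare elsewhere, at 14 of 4743 other paired WT cells (0.295%) and 0 of 3278 other paired 564Igi cells. Their absence is therefore no trait of the high-UMI cells.

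The heavy chain CDR3 had a median length of 13 residues in WT high-UMI cells (12 to 14) and 14 in the others. Without the candidate it had 15 residues in 564Igi high-UMI cells (14 to 16) and 17 (16 to 17) in the others. Heavy chains with the candidate end had a median of 20 residues in both groups, and those without candidate or end had 14.5 and 14. A net CDR3 charge of 1 or more was found in 16.7% of WT high-UMI cells and 24.2% of the others, and in 34.3% and 33.0% of the heavy chains other than the candidate in 564Igi.

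Some high-UMI cells shared both chains (V gene, J gene and CDR3 bases) with B cells under 1000 UMIs. In WT 4 of 30 had such a clonotype partner (13.3%, 3.76 to 30.7), against 0.928% of the other paired B cells, and 2 more had only each other. In 564Igi, without the pair of both candidates, 12 of 39 had one (30.8%, 17.0 to 47.6), against 4.25%. Partners under 1000 UMIs had 2 to 53 heavy chain UMIs in WT (median 6, 11 partners) and 2 to 33 in 564Igi (median 13.5 over 16 pairs of a high-UMI cell and a partner, with 12 partners in all, since those of variant A recur).

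The IGHA cells had most of the WT partners. WT cell 1 had 3, with 6, 14 and 19 heavy chain UMIs, all IGHA. WT cell 3 had 6, with 2 to 23 heavy chain UMIs, of which 4 were IGHA and 2 had no named constant gene. WT cell 2 had 1 partner with 44 heavy and 76 light chain UMIs, and that partner was IGHM while the high-UMI cell was IGHA. WT cell 14 (IGHG1) had 1 IGHG1 partner with 53 heavy chain UMIs. WT cells 18 and 29 were partners of each other, both IGHM with IGHV1-82 and IGKV17-127, at 6397 and 1278 UMIs.

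In 564Igi, cells 13, 16 and 19 were partners of each other and of 2 cells with 5 and 27 heavy chain UMIs. Cell 14 (IGHV1-26) had 2 partners with 6 heavy chain UMIs each. Cells 17, 22, 26, 28, 38, 39, 40 and 42 had 1 partner each, with 27, 7, 33, 24, 19, 8, 2 and 19 heavy chain UMIs. All partners had the constant gene of their high-UMI cell, IGHM in all but cell 40, which was IGHG2C.

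The heavy chains of high-UMI cells also appeared in barcodes that were not called cells in either table. In WT, 11 of 29 distinct heavy chains did so (37.9%, 20.7 to 57.7), against 27 of 4759 distinct heavy chains (0.567%) of the other B cells. In 564Igi, 30 of 34 distinct heavy chains other than the candidate did so (88.2%, 72.5 to 96.7), against 29 of 1570 (1.85%). There were 50 such barcodes in WT, 44 of them with 1 UMI and none above 4, and 134 in 564Igi, 119 with 1 UMI and none above 5. The heavy chain of WT cell 3 (12301 UMIs in the cell) accounted for 30 barcodes. The heavy chain of 564Igi cell 42 (1289 UMIs) accounted for 36, more than those of 564Igi cells with far more UMIs, such as cell 6 (7140 UMIs) with 8. Clonotype partners with at most 4 heavy chain UMIs in WT or at most 5 in 564Igi lie at the levels of these uncalled barcodes, and the part of free RNA in the partners was not tested.

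**Figure D4:**
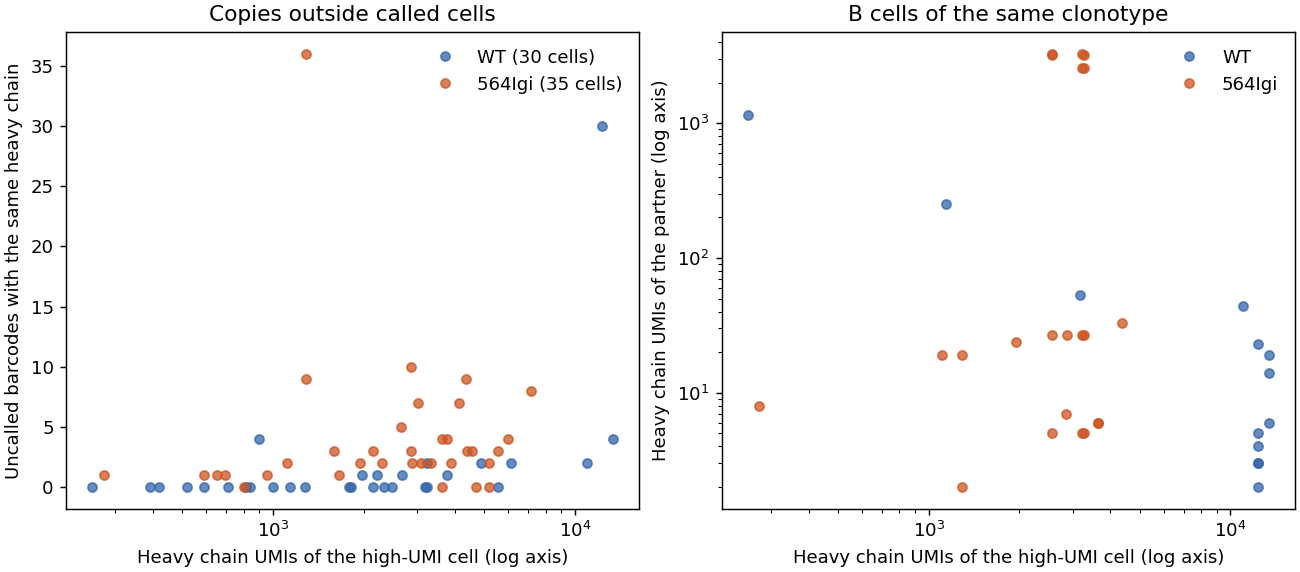
Left, uncalled barcodes that held the heavy chain of a high-UMI cell (vertical axis, number) against the heavy chain UMIs of that cell (horizontal log axis), for 30 WT (blue) and 35 564Igi (orange) cells; right, heavy chain UMIs of each clonotype partner (vertical log axis) against those of the high-UMI cell (horizontal log axis). Most cells have under 10 such barcodes, with WT cell 3 at 30 and 564Igi cell 42 at 36, and most partners lie between 2 and 53 heavy chain UMIs.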

How the data were processed

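Receptor contigs were measured in the B cell and T cell V(D)J libraries of 1 WT and 1 564Igi spleen, and 4 of 6 described libraries were analysed. The deposited tables list, per the file headers, each contig's raw read and UMI counts, cell call, confidence flag, genes and CDR3. Cell Ranger 3.0.2 and mm10 appear in the submitters' processing notes, with no role stated, and the sources used here do not say how cells were called.

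Contigs had to be high-confidence and productive with at least 2 UMIs. The 339 WT and 369 564Igi barcodes with passing contigs that were called in both tables were left out as possible doublets, and no doublet caller was run. Second chains were passing chains of the same cell with a different CDR3. CDR3 charge was the number of lysines and arginines less that of acidic residues. Clonotype partners in 564Igi exclude cells with both candidates. Gene positions come from a RefSeq table of GRCm38.p6. The scripts recovered planted shares in simulated data. The genes and cells named were all constant genes, V genes primary in at least 3 high-UMI cells of a mouse, switched cells, the 10 cells with most UMIs per mouse, cells with clonotype partners and fixed gene lists. Cells named beyond these, such as 564Igi cells 32, 37, 41 and 45, were chosen after their values were seen. The members, lists and measures were chosen with earlier results of these data known. UMI counts and exact intervals do not cover variation between mice. Alternatives changed the UMI cut, the contig minimum, thinning to 10 UMIs, barcodes called in both tables, the comparison group and chain definitions. The software was SciPy 1.17.1, NumPy 2.4.6, pandas 2.3.3 and matplotlib 3.10.9 under Python 3.11.15.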

Additional observations from a re-analysis of the deposited data

Results flagged for a closer look

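Of 26 shares compared between high-UMI and other B cells, 4 had a difference that itself differed between the mice, by an interval without 0 (564Igi minus WT, counting error only, 1 mouse each, not adjusted for the 26). For a found heavy chain, among cells with a light chain, it was -18.7 points (-28.3 to -6.80). WT had 25.5 points (100% of high-UMI against 74.5% of other cells) and 564Igi 6.82 (97.8% against 91.0%). The mice were thus further apart in the other cells than in the high-UMI cells. For a second light chain the difference between the mice was 23.7 points (9.39 to 37.2), with -15.7 in WT and 8.01 in 564Igi. For more heavy than light chain UMIs it was -30.8 points (-48.5 to -15.8). WT had 0.0253 points (6.67% of high-UMI against 6.64% of other cells) and 564Igi -30.8 (13.6% against 44.4%). Here too the mice were further apart in the other cells. For the J gene IGHJ2, without the candidate and its end, the difference between the mice was -35.2 points (-56.9 to -7.95). It was used by 14 of 30 WT high-UMI cells against 31.5%, and by 3 of 24 in 564Igi against 32.5%.

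Barcodes called in both the B cell and the T cell table, which the comparisons left out, also held high UMI sums. They numbered 1 of 339 in WT, with 13123 UMIs, and 6 of 369 in 564Igi, with 3169 to 19604 UMIs. Of these 7 barcodes, 4 were IGHA, and 1 in 564Igi had the IGHV5-17 heavy chain of 564Igi cell 27, with 1569 heavy chain UMIs. Their T cell receptor UMIs numbered 5 to 23. Barcodes not called cells held the heavy chains of high-UMI cells 50 times in WT and 134 times in 564Igi.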

How the results depend on the processing

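Of 160 values of the main measures recomputed under an alternative, 148 kept their direction and size within the counting error (though some intervals came to include or to leave out 0, as given in the report), 10 moved and 2 reversed. All 50 values of V gene families, kappa J genes, CDR3 charge and CDR3 length stayed within it. With each distinct heavy chain counted once, the differences were -17.6 points for WT second light chains, -5.91 points for 564Igi second heavy chains and 2.17 points, a reversal, for the candidate heavy chain, which then counts once. Against B cells of 100 to under 1000 UMIs, a choice made for the candidate chains after seeing the data, the candidate light chain reversed to 7.58 points and the candidate heavy chain moved to -12.7 points. In that comparison IGHD in 564Igi moved to -4.17 points, and the light-to-heavy ratios of the comparison cells were 3.55 in WT and 1.63 in 564Igi. With all chains summed, the ratio of other WT cells was 3.27. Ignoring the confidence flag, also tried after seeing the data, gave -8.22 points for WT and -4.17 points for 564Igi second heavy chains, and leaving out other B cells with heavy chains of high-UMI cells gave -5.85 points in 564Igi. That last alternative was not run for the candidate heavy chain, which it removes by construction. The number of high-UMI cells limits precision, since 3 counts among 30 cells are 10.0%. No paired analysis was possible because each genotype has 1 mouse, and no result comes from a test.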
